A study of Mus musculus with 6 samples.

Results

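The complement system is a cascade of plasma and tissue proteins that marks targets for removal by phagocytes, and it was followed here through 9 genes in the cerebrovascular cells and microglia of WT and ArcSwe mice. The genes were taken by name: *C1qa*, *C1qb* and *C1qc* encode the chains of C1q, the recognition molecule that starts the classical pathway; *C3* and *C4b* encode central components that are cleaved and deposited on targets; *C3ar1* and *C5ar1* encode the receptors for the anaphylatoxins C3a and C5a; *Serping1* encodes the C1 inhibitor; and *Cd55* encodes decay-accelerating factor, which breaks down convertases on cell surfaces. All 9 were found among the 32287 genes of the count files, with 1 entry each. In the brain, C1q is known to be made mainly by microglia, and classical pathway proteins have been linked to the removal of synapses and to amyloid plaques.

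The study isolated microvascular fragments from 1 cerebral hemisphere per mouse with beads against CD31, an endothelial surface protein, and sequenced single cells. The 3 WT mice were C57BL/6J, and the 3 ArcSwe mice carried an *App* transgene with the Arctic and Swedish mutations (genotype AppArcSwe), a model with amyloid plaques and vascular amyloid; all 6 were untreated males of 12 months. The promoter of the transgene was not given in the sources used here. Whether genotype moved the vascular and microglial transcriptome was the question of the comparison. Each mouse gave 1 library of 26436229 to 59161203 UMIs (unique molecular identifiers, counts of single mRNA molecules), with 2907 to 14928 cells. After filtering, 44112 of 49059 cells were kept, and 235 barcodes occurred in more than one library.

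Clusters were named from marker genes and are called "-like" for that reason. Microglia-like cells numbered 7163, perivascular macrophage-like cells 119, endothelial-like cells 24094 (arterial 4291, capillary 8923 and venous 5400 among them) and mural-like cells 3954, of which smooth muscle-like cells gave 194 to 1116 and pericyte-like cells 18 to 172 per mouse; these numbers follow a CD31 bead selection and are not abundances in the tissue. The zones were named from fixed marker lists, so the levels of those markers describe the labels and do not test them. The 10 arterial markers summed to 5933 to 8421 CPM (UMIs scaled to a total of 1e+06) in arterial-like cells and to 179 to 324 in venous-like cells. WT replicate 3 and ArcSwe replicate 3 stood apart, with the highest summed microglial marker levels in endothelial-like cells, 487 and 620 CPM against 155 to 319 in the other 4 mice, and also the highest endothelial marker levels in microglia-like cells, 3630 and 6417 CPM against 875 to 2883. The microglial clusters also differed: clusters with a median ribosomal share under 3% held 27.3% and 34.2% of the microglia-like cells of WT replicates 1 and 2, 95.0% of WT replicate 3, and 70.1%, 93.8% and 79.6% of ArcSwe replicates 1, 2 and 3. Clusters with at least 3 disease-associated microglia (DAM) markers among their 10 leading genes held 0.480% to 1.20% in WT and 14.1%, 3.56% and 19.0% in ArcSwe mice.

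All 9 genes lie on the minus strand of mm10. The C1q genes are neighbours on chromosome 4, *C1qb* at chr4:136880129-136886187, *C1qc* at chr4:136889804-136893065 and *C1qa* at chr4:136895917-136898803. *C3* lies at chr17:57203970-57228136, *C4b* at chr17:34728380-34743882, *C3ar1* at chr6:122847138-122856161, *C5ar1* at chr7:16246743-16259540, *Serping1* at chr2:84765387-84775444 and *Cd55* at chr1:130439027-130462744. *C4b* has a near-identical copy, *C4a*, and *Cd55* has *Cd55b*, so that reads of these genes could have been split or lost in counting and their levels are uncertain.

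The promoters of the pairs whose levels ran most closely together, the C1q genes and the anaphylatoxin receptors, were read as the 250 bases before the RefSeq start on GRCm38.p6, minus strand, written 5′ to 3′. RefSeq promoters were at hand for 6 of the 9 genes, and those of *C1qa*, *C4b* and *Serping1* were not analysed here. Capitals mark a match to 1 of 4 motifs searched on both strands: GAGGAA (core of PU.1 and other ETS factors, reverse TTCCTC), TTCNNNGAA (GAS), GAAANNGAA (core of ISRE, reverse TTCNNTTTC) and TTGCNNAA (C/EBP, reverse TTNNGCAA). The windows are chr4:136886201-136886450 for *C1qb*, chr4:136892915-136893164 for *C1qc*, chr6:122856158-122856407 for *C3ar1* and chr7:16259339-16259588 for *C5ar1*.
C1qb: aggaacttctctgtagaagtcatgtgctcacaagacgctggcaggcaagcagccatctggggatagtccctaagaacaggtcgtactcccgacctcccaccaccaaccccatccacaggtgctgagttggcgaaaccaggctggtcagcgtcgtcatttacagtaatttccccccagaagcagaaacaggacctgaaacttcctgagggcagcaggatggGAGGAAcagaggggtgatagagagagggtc
C1qc: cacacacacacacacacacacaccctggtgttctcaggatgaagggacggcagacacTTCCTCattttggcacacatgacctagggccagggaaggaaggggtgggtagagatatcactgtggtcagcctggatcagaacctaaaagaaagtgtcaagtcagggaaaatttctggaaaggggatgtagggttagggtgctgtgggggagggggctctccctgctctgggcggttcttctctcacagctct
C3ar1: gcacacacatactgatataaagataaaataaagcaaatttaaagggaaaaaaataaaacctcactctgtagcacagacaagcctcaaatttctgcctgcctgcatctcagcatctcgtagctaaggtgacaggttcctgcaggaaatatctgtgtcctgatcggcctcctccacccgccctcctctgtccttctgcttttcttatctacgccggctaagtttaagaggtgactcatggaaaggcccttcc
C5ar1: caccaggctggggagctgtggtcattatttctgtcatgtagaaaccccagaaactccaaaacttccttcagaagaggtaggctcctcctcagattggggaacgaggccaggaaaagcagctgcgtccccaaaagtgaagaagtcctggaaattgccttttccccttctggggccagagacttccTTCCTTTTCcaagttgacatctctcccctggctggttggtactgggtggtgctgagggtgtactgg
The *C1qb* window held GAGGAA at 30 to 25 bases before the start and the *C1qc* window its reverse at 193 to 188 bases. The *C5ar1* window held the ISRE core on the opposite strand at 66 to 58 bases, and the *C3ar1* window held none of the 4. The gene spans given above reach into the windows of *C1qc*, *C5ar1* and, by a few bases, *C3ar1*. The spans and the RefSeq starts thus differ on where these genes begin, and the *C5ar1* match lies inside the span of the gene. GAGGAA occurred in 23.3% and the ISRE core in 7.13% of the 32851 RefSeq promoters of the same length, so that both are common letters. Of the promoters not printed, that of *C3* held a C/EBP match at 45 to 38 bases (9.56% of all promoters) and that of *Cd55* none.

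The C1q genes were by far the most abundant members, and they were abundant in macrophages. In microglia-like cells *C1qa* stood at 5879, 5476 and 3272 CPM in WT replicates 1, 2 and 3 and at 4760, 3892 and 4317 CPM in ArcSwe replicates 1, 2 and 3. *C1qb* stood at 5644, 5318 and 2954 CPM in WT and at 4794, 3886 and 3928 CPM in ArcSwe mice. *C1qc* stood at 4128, 3929 and 2227 CPM in WT and at 3426, 2493 and 2685 CPM in ArcSwe mice. For each of the 3 genes WT replicates 1 and 2 were highest and WT replicate 3 lowest, so the ArcSwe values lay inside the WT range. Together the 3 genes took 0.845% to 1.57% of the UMIs of microglia-like cells. Perivascular macrophage-like cells numbered 5, 7 and 45 in WT replicates 1, 2 and 3 and 14, 3 and 45 in ArcSwe replicates 1, 2 and 3. In them *C1qb* ranged from 2590 to 5160 CPM and *C1qc* from 2214 to 3623 CPM. ArcSwe replicate 3 was lowest for *C1qa* and *C1qb*. *C1qa* ranged from 3459 to 5819 CPM with a median of 4513, and the ranges of both macrophage classes overlapped (difference of microglia minus perivascular macrophages -0.04 ± 0.39 on the log2(CPM + 1) scale, SD over 6 mice, exact sign-flip test p = 0.812).

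**Figure D1:**
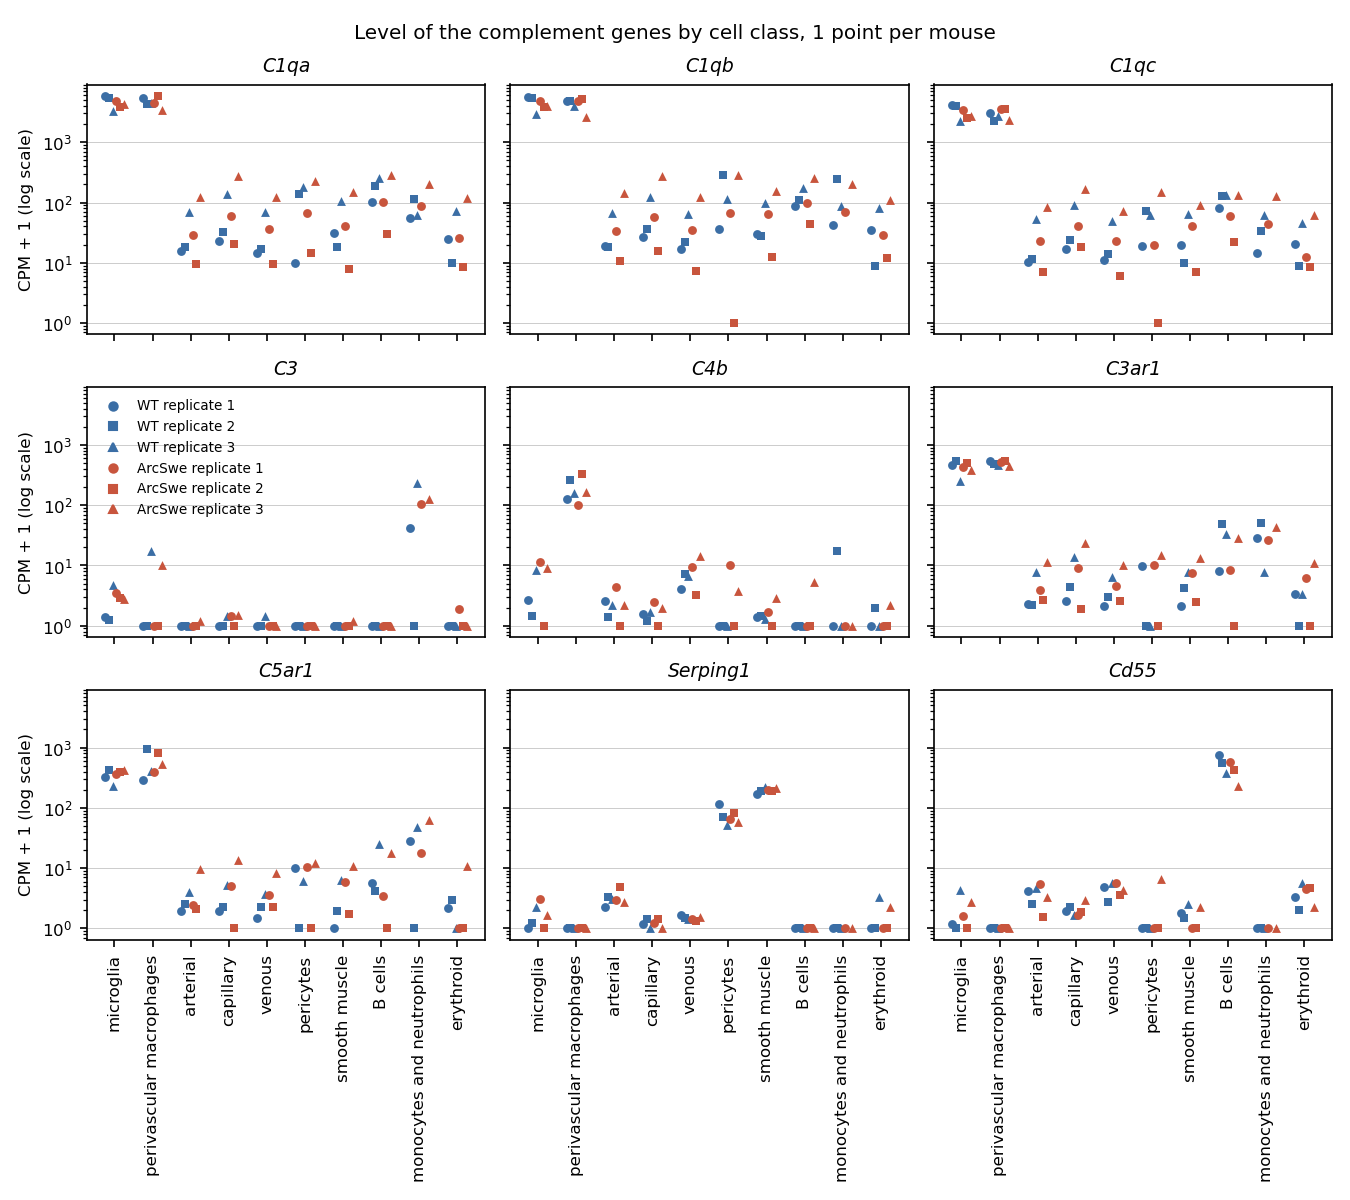
Level of each of the 9 genes as CPM + 1 (log axis) in 10 cell classes, 1 point per mouse, WT in blue and ArcSwe in red. The C1q genes and both receptors are highest in the 2 macrophage classes, *C4b* in perivascular macrophage-like cells, *Serping1* in smooth muscle-like cells and pericytes, *Cd55* in B-like cells and *C3* in monocyte and neutrophil-like cells.

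No member passed the genotype test in microglia-like cells. Of the 9, 6 had enough UMIs to be tested, and 0 had an adjusted p under 0.05 in edgeR or in DESeq2, with 0 at an unadjusted p under 0.05 in edgeR. Of all 11486 genes tested in the class, 0.0348% were called. The log2 fold change, ArcSwe over WT, of *C1qa* was -0.16 ± 0.41 (SE, 3 mice per group, edgeR adjusted p = 0.927), that of *C1qb* -0.13 ± 0.42 and that of *C1qc* -0.24 ± 0.40. The study itself left out a microglial cluster with few ribosomal transcripts. Without the low-ribosomal clusters the direction turned: the log2 fold changes were 0.30 ± 0.23, 0.39 ± 0.23 and 0.28 ± 0.22, with edgeR adjusted p of 0.536, 0.402 and 0.558. There, *C1qb* stood at 5810, 5573 and 5804 CPM in WT and at 6518, 8481 and 6038 CPM in ArcSwe mice. The groups did not overlap, but ArcSwe replicate 2 was left with 14 cells. *C1qa* and *C1qc* overlapped between the genotypes in that set. Cells of DAM clusters made up 5 of 758, 8 of 596 and 18 of 75 of its cells in WT mice. In ArcSwe mice they made up 158 of 336, 8 of 14 and 449 of 484. With DAM clusters also left out, *C1qb* was 5795, 5511 and 5749 CPM in WT and 5328, 8840 and 6628 CPM in ArcSwe mice. The groups then overlapped, with 6 cells in ArcSwe replicate 2. The share of all genes that did not overlap was not computed. Inside the low-ribosomal clusters *C1qa* was 4970, 4573 and 2720 CPM in WT and 2392, 2857 and 3187 CPM in ArcSwe mice, below the value of the remaining clusters in every mouse. *C1qc* there was 3088, 3015 and 1814 CPM in WT and 1505, 1704 and 1770 CPM in ArcSwe mice, where the groups did not overlap and WT was higher. The share of all genes without overlap was not computed for this set either. Neither this separation nor that of *C1qb* in the remaining clusters is read as a result about the gene.

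**Figure D2:**
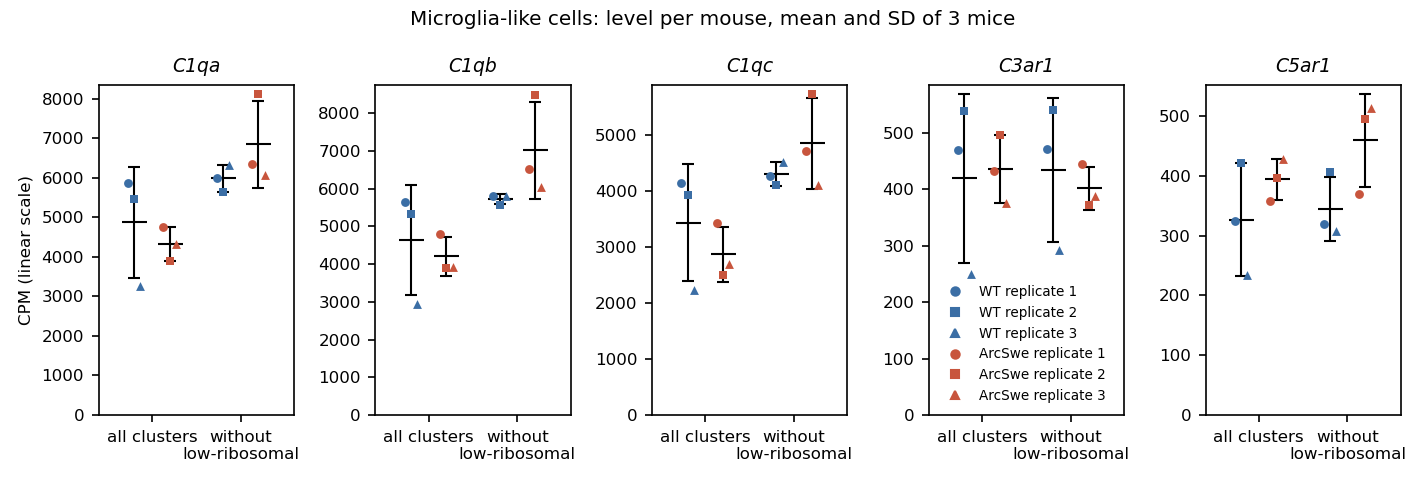
CPM (linear axis) of 5 members in microglia-like cells of each mouse, with all clusters and without the low-ribosomal clusters; bars are the mean and SD of 3 mice. With all clusters WT replicate 3 is the lowest mouse for every gene shown, and without the low-ribosomal clusters the WT values of *C1qb* lie between 5573 and 5810 CPM.

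C1q was also abundant in the DAM clusters. In the 3 mice with at least 10 such cells, WT replicate 3 (18 cells), ArcSwe replicate 1 (158 cells) and ArcSwe replicate 3 (449 cells), *C1qa* was 6811, 7188 and 6060 CPM in DAM clusters and 6195, 5523 and 6236 CPM in the microglia-like cells outside both DAM and low-ribosomal clusters. It was higher in the DAM clusters of 2 of these 3 mice. In all microglia-like cells outside the DAM clusters, low-ribosomal ones included, *C1qa* was 3150, 3751 and 3348 CPM. That was lower than in the DAM clusters of each mouse. *C5ar1* was 374, 445 and 526 CPM in DAM clusters and 290, 298 and 385 CPM outside both DAM and low-ribosomal clusters. By that last comparison *C3ar1* was lower in the DAM clusters of ArcSwe replicates 1 and 3. *C1qc* was lower in those of WT replicate 3 and ArcSwe replicate 3. No test was run over these mice.

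The anaphylatoxin receptors were also genes of the 2 macrophage classes. *C3ar1* stood at 469, 538 and 250 CPM in WT and at 432, 497 and 376 CPM in ArcSwe microglia-like cells, with a log2 fold change of 0.06 ± 0.36 (SE, edgeR adjusted p = 0.977). *C5ar1* stood at 325, 422 and 234 CPM in WT and at 359, 397 and 428 CPM in ArcSwe microglia-like cells, with a log2 fold change of 0.29 ± 0.30 (SE, edgeR adjusted p = 0.785). WT replicate 3 was again the lowest mouse for both, and the genotypes overlapped. Both receptors were higher in perivascular macrophage-like than in microglia-like cells in 5 of 6 mice, *C5ar1* at 293 to 949 CPM and *C3ar1* at 453 to 549 CPM, which did not pass the exact sign-flip test (p = 0.0938 for each, adjusted p = 0.22 over the 54 comparisons between classes). Neither receptor passed the genotype test in perivascular macrophage-like cells, where 0 of 6 tested members were called by edgeR or DESeq2 and 0 had an unadjusted p under 0.05 in edgeR, against 0.152% of 3282 genes. Only 1 WT mouse and 2 ArcSwe mice had the 10 cells required in that class, so the spread there came from the 2 ArcSwe mice alone. The comparisons between classes used all 6 mice. The lowest and highest *C5ar1* levels of the class rest on 7 UMIs in WT replicate 1 and 18 UMIs in WT replicate 2.

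*C4b* separated the macrophages. Perivascular macrophage-like cells held 126, 264 and 157 CPM in WT and 99.3, 329 and 163 CPM in ArcSwe mice, while microglia-like cells held 1.71, 0.463 and 7.45 CPM in WT and 10.4, 0 and 8.08 CPM in ArcSwe mice. All 6 mice had the higher level in perivascular macrophage-like cells, and the groups of values did not overlap. The difference was -5.49 ± 2.06 (SD, microglia minus perivascular macrophages, log2(CPM + 1), 6 mice, exact sign-flip test p = 0.0312, adjusted p = 0.0993), and 0.0312 is the smallest p that 6 mice allow. It rests on 56 UMIs in 119 perivascular macrophage-like cells, with 3 to 19 UMIs per mouse. In microglia-like cells the log2 fold change of *C4b* between the genotypes was 1.47 ± 0.87 (SE, edgeR adjusted p = 0.685), on 100 UMIs in all. It was 2.76 ± 0.87 (SE, edgeR adjusted p = 0.115) without the low-ribosomal clusters, on 50 UMIs in all. With 1 mouse left out it ranged from 0.93 to 2.71, the latter without WT replicate 3, and no adjusted p passed. Outside both DAM and low-ribosomal clusters *C4b* was 1.73, 0 and 10.4 CPM in WT and 3.98, 0 and 0 CPM in ArcSwe mice, on 15 UMIs in all. Over all microglia-like cells, the 3 mice with the highest *C4b* were also the 3 with the highest endothelial marker level. The part of this in the difference was not tested. Without cells holding a UMI of *Cldn5* or *Flt1* the log2 fold change of *C4b* was 2.24 ± 0.90 (SE, edgeR adjusted p = 0.420), on 53 UMIs in all.

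*C3*, the component on which all pathways meet, was close to absent from the vascular and microglial classes. Microglia-like cells held 0.232 to 3.72 CPM, 29 UMIs in all. Of these UMIs 23 lay in the DAM clusters and 6 in the other microglia-like cells. Within the DAM clusters *C3* was 32.4, 41.8 and 62.3 CPM in WT mice, on 1, 1 and 5 UMIs. In ArcSwe mice it was 8.31, 14.8 and 4.28 CPM there, on 8, 1 and 7 UMIs. The DAM clusters held a larger share of cells in ArcSwe mice, and their part in a genotype difference of *C3* was not tested. Endothelial-like cells held at most 0.302 CPM and mural-like cells at most 0.198 CPM. Pericytes held 0 of 894958 UMIs, which allows up to 3.35 CPM at 3 counts. *C3* did not pass edgeR's filter on low counts in any of the 7 classes, so it has no main test within a class. With no filter on low counts its log2 fold change in microglia-like cells was 0.80 ± 0.88 (SE, edgeR adjusted p = 0.731), and no class called it. In perivascular macrophage-like cells *Serping1* and *Cd55* were both at 0 of 343122 UMIs, which allows up to 8.74 CPM. These limits cover counting error only.

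*Serping1* was a gene of the mural cells, with levels close together over the 6 mice. It stood at 165, 188 and 213 CPM in WT and at 189, 186 and 199 CPM in ArcSwe mural-like cells, with the ArcSwe values inside the WT range. The log2 fold change was 0.03 ± 0.11 (SE, edgeR adjusted p = 1.00). Smooth muscle-like cells held 167 to 222 CPM and pericytes 51.9 to 116 CPM, with no overlap, and smooth muscle was higher in 6 of 6 mice (pericytes minus smooth muscle -1.45 ± 0.55, SD, exact sign-flip test p = 0.0312, adjusted p = 0.0993). Endothelial-like cells held 0.537 to 1.12 CPM, lower than mural-like cells in 6 of 6 mice (endothelial minus mural -6.75 ± 0.16, SD, exact sign-flip test p = 0.0312, adjusted p = 0.0993). Across the 83 class and mouse sums the genes most alike to *Serping1* were *Itga7* (Pearson r = 0.942), *Trpc6* (0.928) and *Ednra* (0.920), given as a description over sums that share libraries, depth and cell classes. *C1qa* was most like *C1qb* (0.934), *C1qc* (0.930) and *Fcgr3* (0.903), and *C1qb* and *C1qc* had *Ctss* (0.903) and *Fcgr3* (0.888) as the most alike gene outside C1q. *C4b* was most like *Ms4a7* (0.708), *Ccl24* (0.670) and *Apoe* (0.662). In the same measure *C3ar1* was most like *Adgre1* (r = 0.900), *C5ar1* (0.887) and *Arhgap22* (0.881), and *C5ar1* most like *Fcgr1* (r = 0.901) and *Adgre1* (0.901).

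Within the endothelium 3 members were zoned at low levels. *C4b* was 3.03, 6.34 and 5.77 CPM in WT and 8.31, 2.23 and 13.2 CPM in ArcSwe venous-like cells, against 0 to 1.51 CPM in capillary-like cells, and was higher in 6 of 6 mice (venous minus capillary 2.07 ± 0.57, SD, log2(CPM + 1)). The 10 perivascular macrophage markers summed to 192 to 238 CPM in venous-like and 158 to 178 CPM in capillary-like cells and were also higher in 6 of 6 mice, and their part in the *C4b* difference was not tested. *Serping1* was 1.29 to 3.82 CPM in arterial-like cells and 0 to 0.452 CPM in capillary-like cells (5 UMIs in all), again in 6 of 6 mice (arterial minus capillary 1.38 ± 0.29). *Cd55* was 1.78 to 4.68 CPM in venous-like and 0.648 to 1.94 CPM in capillary-like cells, and higher in venous-like cells of 6 of 6 mice (1.10 ± 0.62). Each of these reached the smallest p of the exact sign-flip test (p = 0.0312) and none passed at an adjusted p of 0.0993. *C1qa* went the other way, lower in arterial-like (-0.93 ± 0.22) and venous-like cells (-0.90 ± 0.20) than in capillary-like cells of 6 of 6 mice, where it stood at 19.4 to 270 CPM. Cells with *Cx3cr1* or *Aif1* had been removed from the endothelial classes, so the other 8 microglial markers were used here. They were highest in capillary-like cells too, at 1.24% to 9.52% of their level in microglia-like cells against 1.02% to 5.40% in arterial-like cells. Their part in the *C1qa* difference was not tested. Over all 54 comparisons of members between classes, 17 went 1 way in all 6 mice, and all 17 had that adjusted p.

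**Figure D3:**
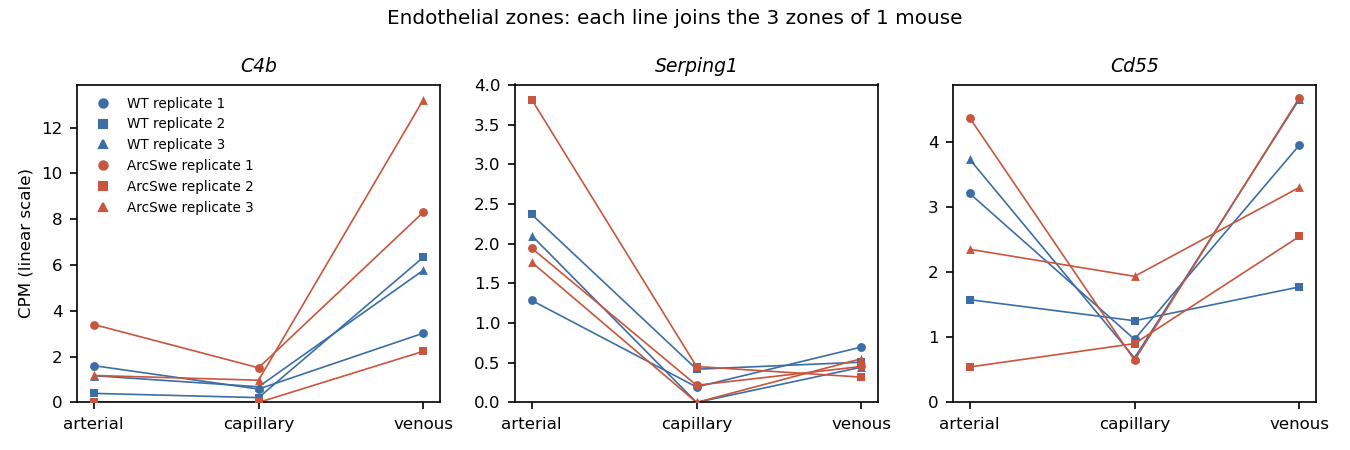
CPM (linear axis) of *C4b*, *Serping1* and *Cd55* in arterial-, capillary- and venous-like cells, 1 line per mouse, WT in blue and ArcSwe in red. In every mouse *C4b* and *Cd55* are higher in venous- than in capillary-like cells and *Serping1* is higher in arterial- than in capillary-like cells; *C4b* reaches 13.2 CPM in ArcSwe replicate 3.

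C1q UMIs were also counted in endothelial- and mural-like cells, at far lower levels than in macrophages. *C1qa* in endothelial-like cells was 18.1, 22.3 and 91.5 CPM in WT and 40.4, 12.4 and 165 CPM in ArcSwe mice, highest in ArcSwe replicate 3 and WT replicate 3. In mural-like cells it was 29.9, 20.2 and 108 CPM in WT and 41.2, 7.11 and 151 CPM in ArcSwe mice, with the same 2 mice on top. The T and NK-like cells are a lymphocyte class not known to make C1q. They held *C1qa* at 22.1, 48.3 and 191 CPM in WT and 163, 27.3 and 346 CPM in ArcSwe mice. The same 2 mice were again on top. Endothelial markers in the T and NK-like cells stood at 7.94% to 31.9% of the level in endothelial-like cells. All 3 C1q genes together gave them 8 and 13 UMIs in WT replicates 1 and 2 and 6 in ArcSwe replicate 2. Erythroid-like cells held 7.42 to 116 CPM, but their endothelial markers stood at 67.7% to 87.9% of the level in endothelial-like cells, so they are no class free of endothelial RNA. How much of the C1q in endothelial- and mural-like cells was made there was not tested. After thinning every cell to 1000 UMIs, the share of cells with a *C1qa* UMI was 1.01% to 15.9% in endothelial-like and 0.472% to 14.7% in mural-like cells, at median depths of 3733 and 5014 UMIs, against 87.6% to 97.7% in microglia-like cells; 653 endothelial-like and 1545 microglia-like cells were too shallow to be used. In endothelial-like cells the 3 C1q genes reached 0.319% to 4.10% and 8 microglial markers 1.09% to 6.46% of their level in microglia-like cells. The mouse with the highest and the mouse with the second highest value were the same for both. Summed over mice, *C1qa*, *C1qb* and *C1qc* made up 37.8%, 36.1% and 26.1% of the C1q UMIs in microglia-like cells, 36.9%, 38.5% and 24.6% in endothelial-like cells and 36.8%, 39.8% and 23.4% in mural-like cells. Single mice spread more widely in mural-like cells, where *C1qa* made up 28.7% to 39.9%, and *C1qc* was at 18.1% in T and NK-like cells.

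**Figure D4:**
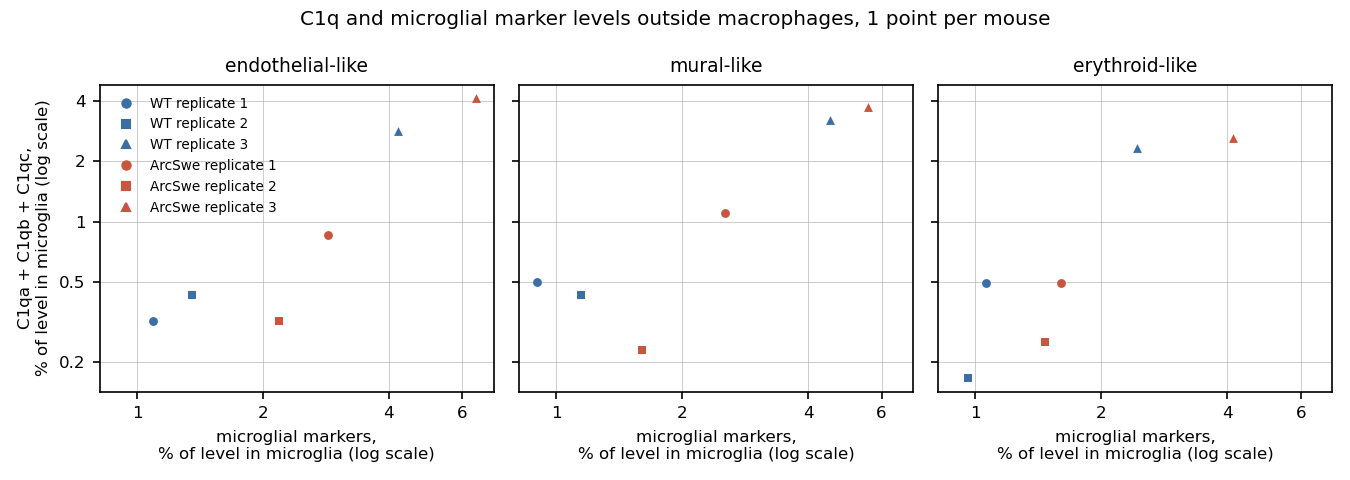
Summed C1q genes against 8 summed microglial markers in endothelial-, mural- and erythroid-like cells, both as a percent of the level in microglia-like cells of the same mouse (log axes), 1 point per mouse. WT replicate 3 and ArcSwe replicate 3 lie at the upper right in each class, up to 4.10% for C1q in endothelial-like cells; the erythroid-like cells also carry endothelial markers.

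No member passed the genotype test in a vascular class. In endothelial-like cells 8 members were tested, 0 were called in edgeR or DESeq2 and 0 had an unadjusted p under 0.05 in edgeR, beside 0% of 13398 genes called. In arterial-like cells 5 were tested and 0 called, beside 0.00911% of 10973 genes (with no filter on low counts the 3 C1q genes were called, beside 0.594% of 19200 genes, at nearly the same fold changes of 0.72, 0.95 and 0.71); in capillary-like cells 5 and 0, beside 0% of 11224; in venous-like cells 7 and 0, beside 0% of 11154; and in mural-like cells 6 and 0, beside 0% of 10997. DESeq2 called 0 members in these classes too, and 0 had an unadjusted p under 0.05 in edgeR. Over the members tested the median log2 fold change was 0.81 in endothelial-like, 0.98 in capillary-like and -0.03 in microglia-like cells, beside 0.00, 0.00 and -0.02 over all genes. In endothelial-like cells the log2 fold change was 0.79 ± 0.89 for *C1qa*, 0.88 ± 0.82 for *C3ar1*, 1.23 ± 0.81 for *C5ar1*, 0.83 ± 0.53 for *C4b*, 0.32 ± 0.37 for *Serping1* and -0.07 ± 0.26 for *Cd55* (SE, edgeR adjusted p of 0.989 to 0.997). Without ArcSwe replicate 3 that of *C1qa* was -0.63. The share of the C1q difference that goes with the microglial markers was not tested. Without WT replicate 3 and ArcSwe replicate 3 together the log2 fold change was 0.45 ± 0.40 for *C1qa*, 0.76 ± 0.57 for *C4b* and 0.99 ± 0.56 for *C3ar1*. In capillary-like cells this choice, made after seeing the data, gave 0.67 ± 0.31 for *C1qa* (edgeR adjusted p = 0.552) and 0.65 ± 0.28 for *C1qc* (adjusted p = 0.524). Tested with the mouse as a block, the genotype effect in microglia-like cells minus that in endothelial-like cells was called for 0 of 8 members in edgeR (0 at an unadjusted p under 0.05), beside 0% of 13574 genes.

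**Figure D5:**
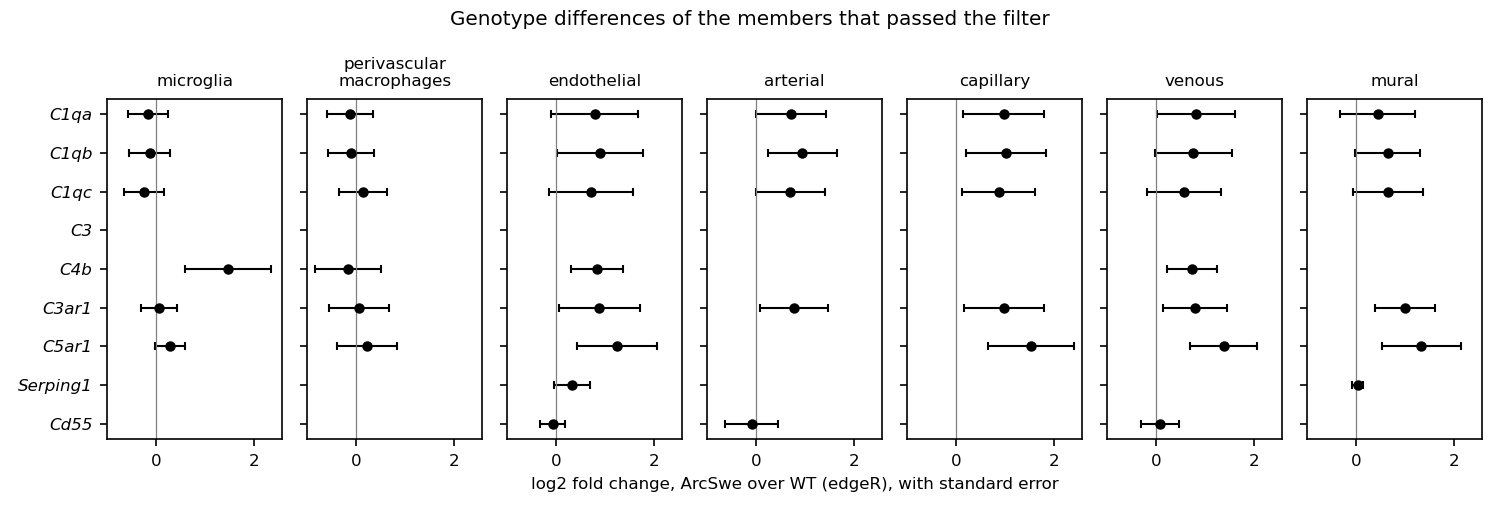
Log2 fold change, ArcSwe over WT, with its standard error (edgeR) for the members that passed the filter on low counts in each of 7 classes. No member was called, and the shortest error bar is that of *Serping1* in mural-like cells, 0.11.

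Around these 9, 41 other complement genes were followed from a fixed list, and 0 were called in any of the 7 classes by edgeR. In microglia-like cells 15 were tested and 2 had an unadjusted p under 0.05 in edgeR, beside 914 of all 11486 genes. The median log2 fold change of the 15 was 0.17 beside -0.02 over all genes. In endothelial-like cells 18 were tested and 2 had such a p, beside 594 of 13398 genes. Their median was 0.07 beside 0.00 over all genes. In mural-like cells 14 were tested and 1 had one, beside 318 of 10997 genes, with a median of 0.15. Among the most abundant in microglia-like cells were *Itgam*, a chain of complement receptor 3 (357 to 546 CPM), and *Itgb2*, the partner chain of *Itgam* (146 to 184 CPM). In perivascular macrophage-like cells *Itgam* (41.9 to 527 CPM) and *Colec12* (39.7 to 369 CPM) were among them. In endothelial-like cells *Cd93* (334 to 377 CPM) and *Cd59a*, which blocks the membrane attack complex (165 to 219 CPM), were among them. *Clu*, clusterin, led in arterial-like cells (545 to 733 CPM), and *Cr1l* was among the 3 leading genes in capillary-like cells (159 to 183 CPM). In mural-like cells *Vtn*, vitronectin, led (1026 to 1831 CPM), before *Colec12* (77.9 to 159 CPM) and *C1s1*, a C1 protease (72.4 to 86.7 CPM). *Vtn* was far higher in pericytes, 12401 to 18371 CPM, than in smooth muscle-like cells, 529 to 980 CPM.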

How the data were processed

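Single-cell libraries of 3 WT and 3 ArcSwe mice, each a separate mouse, were analysed. The counts deposited by the authors hold unnormalized UMIs, 1 matrix of genes by cells per library, made with Cell Ranger 7.0.0 on mm10 per the submitters' processing notes. The 9 members and all gene lists were chosen with earlier results of these data known.

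Cells with 500 to 4500 genes and under 10% mitochondrial UMIs were kept. Counts were scaled to 10000 per cell, and 2000 variable genes without the complement genes gave 30 principal components and a graph of 20 neighbours (scanpy 1.11.5, scikit-learn 1.9.0), clustered at resolution 1 (leidenalg 0.10.2). Clusters were named from at least 3 fixed markers. No doublet caller was run. Clusters with raised markers of several types were left unnamed, apart from related types such as pericytes and smooth muscle, and endothelial markers did not bar the erythroid-like name. Of the endothelial-like cells, 18.2% were removed because they held *Cx3cr1* or *Aif1*.

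UMIs were summed per mouse and class over 29360 genes, leaving out ribosomal, mitochondrial, pseudogene and Rik genes; sums held 533461 to 5256287 UMIs per mouse in microglia-like and 8900597 to 20045760 in endothelial-like cells. Genotype was tested with edgeR 4.0.16 (filterByExpr, TMM, glmQLFTest, R 4.3.3) at a Benjamini-Hochberg adjusted p under 0.05 over all genes tested, with mice of under 10 cells left out. DESeq2 1.42.0, no filter, other clusterings and left-out mice were alternatives. Levels between classes were compared within mice by two-sided exact sign-flip tests of log2(CPM + 1), adjusted over 54 comparisons; shares of cells with a UMI were compared by exact permutation tests, for which 3 against 3 mice allow no p under 0.1. The tests were tried on simulated data. The named genes were the 9 members, the 3 most abundant genes of the complement list in each class, and the 3 genes most correlated with each member, given in the text except for 1 gene of the list that is not reported here. No column of the files was left unmapped.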

Additional observations from a re-analysis of the deposited data

Results flagged for a closer look

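4 levels lay in classes outside the genotype comparisons and were above the highest level of any mouse in the microglial, perivascular macrophage and vascular classes. *Cd55* had a median of 486 CPM over mice in B-like cells, where it ranged from 232 to 764 CPM, of 58.7 CPM in choroid plexus and ependyma-like cells and of 50.6 CPM in T and NK-like cells, against at most 5.68 CPM in a compared class. *C3* had a median of 102 CPM in monocyte and neutrophil-like cells, at 41.2, 0 and 230 CPM in WT replicates 1, 2 and 3 and 102 and 126 CPM in ArcSwe replicates 1 and 3, against at most 16.5 CPM in a compared class. ArcSwe replicate 2 had no such cell, and the value rests on 82 UMIs in 118 cells. No difference between the genotypes was tested for these classes.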

How the results depend on the processing

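The count of 0 members called held in all 7 classes under DESeq2, other normalization, other clusterings and each left-out mouse that could be fitted, except that with no filter on low counts 3 members, the C1q genes, were called in arterial-like cells, where 0.594% of 19200 genes were called. Of 585 alternative values of the 43 log2 fold changes, 531 kept direction and side, 51 turned direction and 3 newly passed, and the cause was not tested. With a stricter cell filter it was 0.13 for *C1qa* in microglia-like cells, 0.20 for *C1qb* in microglia-like cells, 0.11 for *C1qc* in microglia-like cells, 0.16 for *C4b* in perivascular macrophage-like cells, 0.21 for *Cd55* in arterial-like cells. At a clustering resolution of 2 it was 0.028 for *C1qa* in microglia-like cells, 0.053 for *C1qb* in microglia-like cells, -0.039 for *Cd55* in venous-like cells. With neither low-ribosomal nor DAM clusters (chosen after seeing the data) it was 0.028 for *C1qa* in microglia-like cells, 0.11 for *C1qb* in microglia-like cells, 0.17 for *C1qc* in microglia-like cells, -0.0075 for *C5ar1* in microglia-like cells. Without low-ribosomal clusters it was 0.30 for *C1qa* in microglia-like cells, 0.39 for *C1qb* in microglia-like cells, 0.28 for *C1qc* in microglia-like cells, -0.018 for *C3ar1* in microglia-like cells. With no filter on low counts it was -0.011 for *C3ar1* in microglia-like cells, -0.0041 for *C3ar1* in perivascular macrophage-like cells. Without WT replicate 3 and ArcSwe replicate 3 together (chosen after seeing the data) it was -0.15 for *C3ar1* in microglia-like cells, -0.018 for *C5ar1* in microglia-like cells, 0.0204 for *Cd55* in endothelial-like cells. With 1 mouse left out, 30 values turned, 19 of them without ArcSwe replicate 3. In microglia-like cells it ranged from -0.45 to 0.023 for *C1qa*, from -0.44 to 0.0597 for *C1qb*, from -0.28 to 0.31 for *C3ar1*. In endothelial-like cells it ranged from -0.63 to 1.84 for *C1qa*, from -0.58 to 1.76 for *C1qb*, from -0.58 to 1.76 for *C1qc*, from -0.12 to 1.95 for *C3ar1*, from -0.32 to 0.074 for *Cd55*. In arterial-like cells it ranged from -0.76 to 1.85 for *C1qa*, from -0.57 to 1.93 for *C1qb*, from -0.64 to 2.03 for *C1qc*, from -0.71 to 0.20 for *Cd55*. In capillary-like cells it ranged from -0.56 to 2.16 for *C1qa*, from -0.59 to 1.97 for *C1qb*, from -0.47 to 1.96 for *C1qc*, from -0.15 to 2.18 for *C3ar1*. In venous-like cells it ranged from -0.44 to 1.93 for *C1qa*, from -0.57 to 1.59 for *C1qb*, from -0.61 to 1.58 for *C1qc*, from -0.028 to 1.65 for *C3ar1*, from -0.21 to 0.32 for *Cd55*. In mural-like cells it ranged from -0.94 to 1.502 for *C1qa*, from -0.37 to 1.42 for *C1qb*, from -0.32 to 1.72 for *C1qc*, from -0.033 to 0.079 for *Serping1*. With the replicate number as a block, 0 members were called in all classes that could be fitted. Same-numbered mice correlated at 0.45, -0.03 and 0.27 in microglia-like, 0.41, 0.03 and 0.39 in endothelial-like and 0.24, 0.14 and 0.40 in mural-like cells. In the same classes WT replicate 2 and ArcSwe replicate 1 correlated at 0.40, 0.35 and 0.23. WT replicate 3 and ArcSwe replicate 1 correlated at -0.46, -0.50 and -0.31. The numbers may pair the mice, but these values do not decide it in any class. The block and the left-out mice could not be fitted in perivascular macrophages. The number of the 54 class comparisons in which all mice went 1 way was 14 to 23 over the alternatives; *Cd55* in arterial minus venous cells was 0.02 at resolution 2 against -0.37. Of 27 shares of cells with a UMI, 2 did not overlap between the genotypes, *C3* in microglia and *Serping1* in endothelial cells. Each had an exact permutation test p = 0.1, the smallest that 3 against 3 mice allow. When thinned to 2000 UMIs or not thinned, 0 were free of overlap. The *C3* share rested on 0, 0 and 1 cells in WT and 1, 1 and 3 cells in ArcSwe mice. The *Serping1* share rested on 0, 1 and 0 cells in WT and 2, 2 and 2 cells in ArcSwe mice. The share of all genes that did not overlap was not computed. Over all genes, microglia-like cells gave 4 calls in edgeR, 100 in DESeq2, 59 with the block and 345 without low-ribosomal clusters, endothelial-like cells 0 and 11 (DESeq2), capillary-like cells 0 and 4 (DESeq2), and arterial-like cells 1, 12 (DESeq2) and 114 (no filter). Few UMIs limit *C3*, *C4b* and *Cd55*.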

Other observations

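*C4b* was also counted in the 59 astrocyte-like cells, with a median of 60.4 CPM over mice and a highest value of 169 CPM in ArcSwe replicate 1, a class with 2 to 23 cells per mouse. Over the 83 class and mouse sums *Cd55* was most like *Ikzf3* (Pearson r = 0.763), *Rasgrp1* (0.755) and *Edaradd* (0.750), and *C3* most like *Hp* (0.879), *Dmkn* (0.764) and *Trem3* (0.747).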
